A study of Mus musculus with 21 samples.

Results

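Splicing factors and nuclear-retained RNAs were followed through 8 weeks of ultraviolet (UV) exposure of mouse skin. The members were all probe sets annotated to 1 gene whose symbol begins with Srsf or Hnrnp, or is Clk1, Clk2, Clk4, Tra2a, Tra2b, Rbm39, Rbm25, Malat1, Neat1 or Meg3. This rule used names only and gave 144 of the 45101 probe sets of the array, for 39 of the 18194 genes so annotated. Of these, 136 probe sets of 38 genes passed an intensity filter (1 or more arrays in which the probe set reached the 20th percentile) and were tested. The 8 that did not pass belonged to Rbm25, Srsf12, Rbm39, Tra2a and Srsf1, and Srsf12 was left with no tested probe set.

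Total RNA came from the dorsal skin of female albino hairless Hos:HR-1 mice, which were 6 weeks old on arrival and were acclimated for 1 week. There were 7 groups of 3 arrays each, 21 in all: control mice without UV, taken in week 1 or week 8, and mice given UV and taken in week 1, 2, 4, 6 or 8. Mice were exposed 3 times a week, and the dose rose weekly by 1 minimal erythema dose up to 4. All groups, controls included, carried the hairless background, so the hair follicle compartment was that of a mutant strain. An array number names a sample and pairs it with no sample of another group. The methods describe 3 mice per group, the labels tie no array to an animal, and p-values measure the spread between these arrays. Replicate arrays correlated between 0.957 and 0.996 over all probe sets.

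SR proteins (the Srsf genes) bind exonic enhancers and recruit the spliceosome, while hnRNP proteins coat nascent transcripts and often repress exons. CLK kinases phosphorylate SR proteins, and Tra2 proteins are their relatives. Many of these genes control their own level by alternative splicing that adds a premature stop codon or keeps an intron in the nucleus, so that probes on different parts of 1 gene can read different transcripts. Malat1 and Neat1 are long noncoding RNAs of nuclear speckles and paraspeckles, and Meg3 is a maternally expressed noncoding RNA of an imprinted locus. An Affymetrix name ending in a_at marks probes to alternative transcripts of a gene, s_at probes shared by several transcripts, and x_at probes of which some match other sequences. The places of the probes in the transcripts were not used here.

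RefSeq (GRCm38.p6) promoter sequences were matched by symbol for 35 of the 39 genes, in 49 windows, of which 27 genes had 1. The 250 bases before the start are printed 5′ to 3′ for 4 genes, shown because each had a probe set lower at UV week 8 and its window ends at the start of the annotated gene. The windows are chr2:162931258-162931507 on the plus strand for Srsf6, chr11:51606882-51607131 on the minus strand for Hnrnpab, chr11:51262864-51263113 on the plus strand for Clk4 and chr16:22266006-22266255 on the minus strand for Tra2b. Capitals mark motifs found on either strand.
Srsf6: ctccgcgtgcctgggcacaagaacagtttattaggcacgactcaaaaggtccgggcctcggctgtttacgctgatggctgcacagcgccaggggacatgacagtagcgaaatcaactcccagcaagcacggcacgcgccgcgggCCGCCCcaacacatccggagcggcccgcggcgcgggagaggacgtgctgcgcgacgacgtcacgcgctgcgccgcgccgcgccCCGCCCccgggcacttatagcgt
Hnrnpab: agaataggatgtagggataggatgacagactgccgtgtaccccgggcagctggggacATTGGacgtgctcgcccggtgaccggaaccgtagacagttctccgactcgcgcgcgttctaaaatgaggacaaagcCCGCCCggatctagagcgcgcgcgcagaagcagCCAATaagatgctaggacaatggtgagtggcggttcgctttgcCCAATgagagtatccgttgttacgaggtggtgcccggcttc
Clk4: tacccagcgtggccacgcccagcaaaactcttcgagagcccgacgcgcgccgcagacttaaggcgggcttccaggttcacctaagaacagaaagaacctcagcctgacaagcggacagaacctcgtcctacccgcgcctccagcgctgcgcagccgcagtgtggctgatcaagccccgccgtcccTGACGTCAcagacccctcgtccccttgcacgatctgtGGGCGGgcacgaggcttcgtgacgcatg
Tra2b: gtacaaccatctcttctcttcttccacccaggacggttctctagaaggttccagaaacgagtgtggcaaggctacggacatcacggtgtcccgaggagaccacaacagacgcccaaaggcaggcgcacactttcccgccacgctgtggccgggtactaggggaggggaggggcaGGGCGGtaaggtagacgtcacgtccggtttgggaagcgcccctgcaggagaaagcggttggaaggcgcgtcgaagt
The motifs searched were the CCAAT box (CCAAT), the GC box (GGGCGG), the TATA box (TATAAA), an ETS site (CGGAAG), the E-box (CACGTG) and the cyclic AMP response element (TGACGTCA), and GC boxes may overlap each other. GC boxes were in 71.4% of the 49 windows and in 32.7% of all 32851 windows. ETS sites were in 30.6% against 13.6%, and CCAAT boxes in 46.9% against 33.8%. TATA boxes were in 10.2% against 12.4%, and E-boxes in 6.12% against 6.02%. The cyclic AMP response element was in 3 windows (6.12% against 1.55%), among them that of Clk4. The median window held 22 CG dinucleotides, against 6 over all windows. A match describes the letters and is not a bound site.

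At UV week 8, 32 of the 136 tested probe sets, from 20 genes, were lower than in control week 1 and 3 were higher (limma, adjusted p of at most 0.05 over 40540 probe sets). They included Srsf1, Srsf2, Srsf6 and Srsf11, Hnrnpf, Hnrnph1 and Hnrnpu, Clk1 and Clk4, Tra2b, Rbm25 and Rbm39. The lower share was 23.5% of the members against 6.73% of all probe sets, and 5.39% of all probe sets were higher. The median log2 fold change was -0.24 over the members and 0.09 over all probe sets. With a change of at least 2-fold as well, leaving out probe sets that differed by 1.5-fold or more between the controls, 15 members were lower and 0 higher, against 2.04% and 0.55% of all. Of the 32 lower probe sets, 13 had all 3 UV arrays below all 3 control arrays. That share was not counted over all probe sets, so it does not set the members apart. Arrays were unequal within UV week 8: array 551 was the highest of its group in 31 of the 32. How often it was the highest over all probe sets was not counted either. The number of members past the test was 73 without array 551, 7 without array 552, 7 without array 555, 6 without control array 13 and 16 without control array 16. It was 82 with array weights and 0 with only the 2 groups compared. With single arrays left out, array weights or only 2 groups, here and below, shares of all probe sets were not counted. These numbers thus do not set the members apart.

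**Figure D1:**
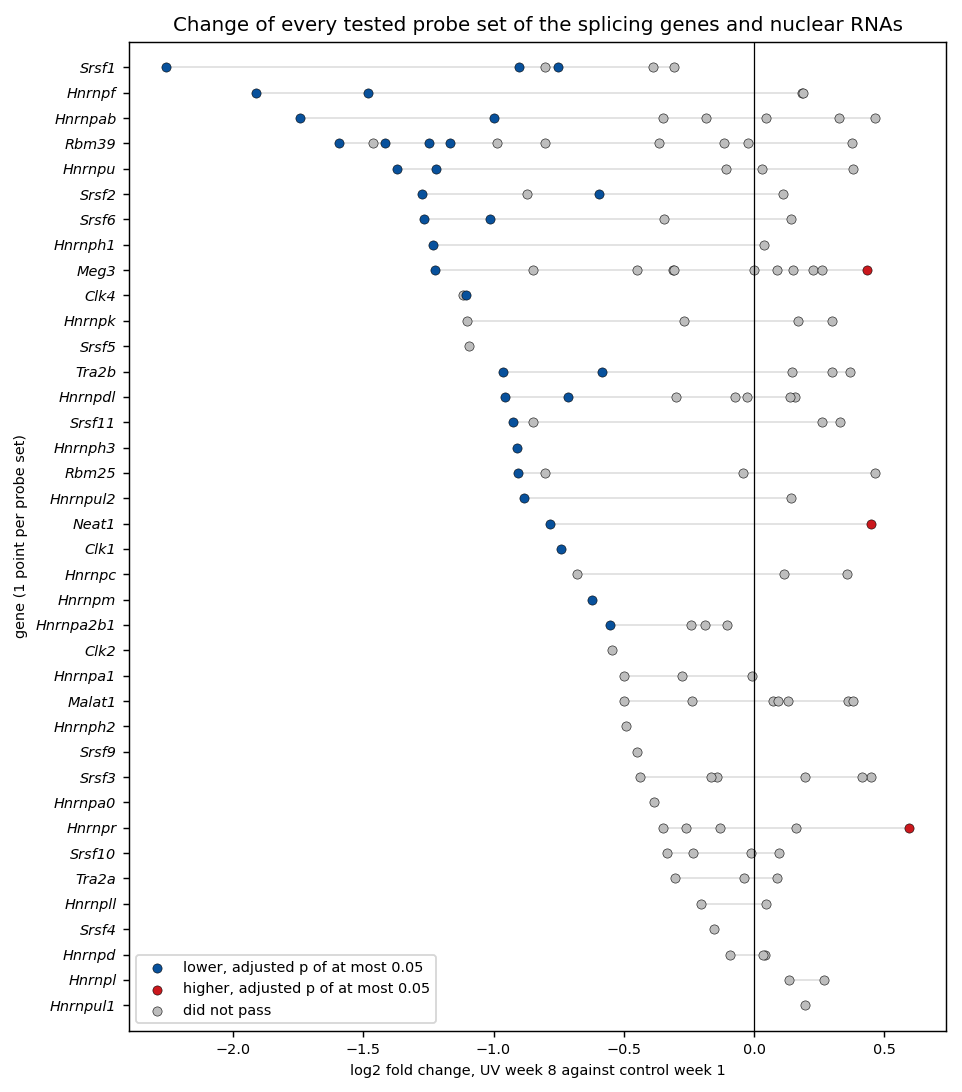
Log2 fold change of the 136 tested probe sets (x axis, UV week 8 against control week 1, n = 3 arrays per group), 1 row per gene and 1 point per probe set. The 32 lower probe sets (blue) and the 3 higher (red) lie among probe sets of the same genes that did not pass (grey).

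The number of members past the test differed between the weeks. At UV weeks 1, 2 and 4 no member passed the test by limma. Of all probe sets, 0.0123% were lower and 0% higher at week 1. The shares were 0.0296% and 0.0321% for week 2, and 0.772% and 0.36% for week 4. Before adjustment, a p of 0.05 or less was reached at week 1 by 42 members that were lower and 8 that were higher, against 9.38% and 9.88% of all probe sets. At week 2 there were 5 and 2 of these, against 3.37% and 2.96%, and at week 4 there were 21 and 7, against 6.65% and 5.3%. Week 6 had 60 and 10 before adjustment, against 5743 and 7135 of the 40540 probe sets. Week 8 had 53 and 11, against 5653 and 7005. Without control array 12, 10 members passed at week 1 and 4 at week 4, and 6 passed at week 1 without UV array 116 and 1 at week 4 without UV array 334. With array weights 64, 2 and 30 members passed at weeks 1, 2 and 4. At UV week 6, 33 members of 23 genes were lower and 2 higher, against 6.3% and 5.43% of all probe sets. The week 6 number was 4 without control array 13, 12 without control array 16, 8 without UV array 445 and 21 without UV array 441, and it was 61 with array weights and 9 with only the 2 groups compared. The 32 probe sets lower at week 8 had a median log2 fold change of -0.65 in UV week 1, -0.16 in UV week 2 and -0.44 in UV week 4. It was -0.91 in UV week 6 and -1.01 in UV week 8. These probe sets were picked as low against the same control arrays, and the mean log2 actin ratio described below was 3.99 in UV week 1, 2.85 in UV week 2 and 3.46 in UV week 4, a part that was not tested. The change from UV week 1 to week 2 passed the test for 0 members in either direction, against 0.00247% lower and 0.00987% higher of all, with 21 lower and 24 higher before adjustment, against 11.1% and 11% of all. It passed for 6 without UV array 116 and for 54 with array weights.

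Against control week 8, 22 members of 14 genes were lower at UV week 8 and 1 was higher, against 4.3% and 2.56% of all probe sets. The number past the test was 67 without UV array 551, 0 without UV array 552, 1 without UV array 555, 0 without control array 55 and 5 without control array 51 or 53. It was 69 with array weights and 0 with only the 2 groups compared. The controls themselves differed in 0 members, against 0.0296% of all probe sets in each direction, with 7 lower and 3 higher before adjustment, against 2.62% and 2.39% of all, and 3 passed with array weights. The difference between the UV effect at week 8 and at week 1, each against its own control, passed the test for 0 members by limma, with 6 before adjustment against 4.16% of all. An F test of any difference among the 7 groups was passed by 35 members, against 8.98% of all probe sets, by 79 without UV array 551 and by 98 with array weights. It was passed by 14 to 23 members without any 1 of arrays 13, 16, 51, 53, 55, 112, 114, 222, 224, 225, 331, 333, 441, 445, 552 and 555.

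The beta-actin 3′/5′ ratio, a control for RNA integrity in which a higher value marks RNA more often lost toward the 5′ end, moved with these probe sets. On the log2 scale it was 4.74, 2.55 and 2.37 in control week 1 and 3.46, 3.11 and 3.43 in control week 8. It was 4.12, 2.36 and 5.11 in UV week 6 and 2.77, 5.14 and 4.90 in UV week 8. The lowest ratio of UV week 8 was that of array 551, the array that was highest of its group in 31 of the 32 lower probe sets. In UV week 1 it was 4.88, 4.39 and 2.71, in UV week 2 it was 3.30, 2.26 and 2.99, and in UV week 4 it was 3.38, 4.05 and 2.96. Within groups, 40 of the 136 members fell as the ratio rose and 15 rose, against 14.8% and 17.1% of all probe sets (limma, a test added after the data were seen). Of the 32 members lower at week 8, 22 fell with the ratio. With the ratio in the model, 29 of the 32 stayed lower and their median log2 fold change was -0.81. With the Gapdh ratio in its place, 32 stayed lower and the median was -0.96. Without the 8 arrays of a ratio above 4 the median was -0.55 and 0 members passed at week 8, against 1.34% of all probe sets that were lower. UV week 8 then held array 551 alone, the highest of its group in 31 of the 32. At UV week 6, where array 443 alone was left, 36 members were lower without those arrays, against 5.77% of all, 24 of them were among the 33, and the median of the 33 was -0.86 against -0.81. These tests gave a group of 1 array the spread measured in the other groups. RNA integrity and UV cannot be told apart in UV week 8, where both arrays with the lowest values had a high ratio.

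**Figure D2:**
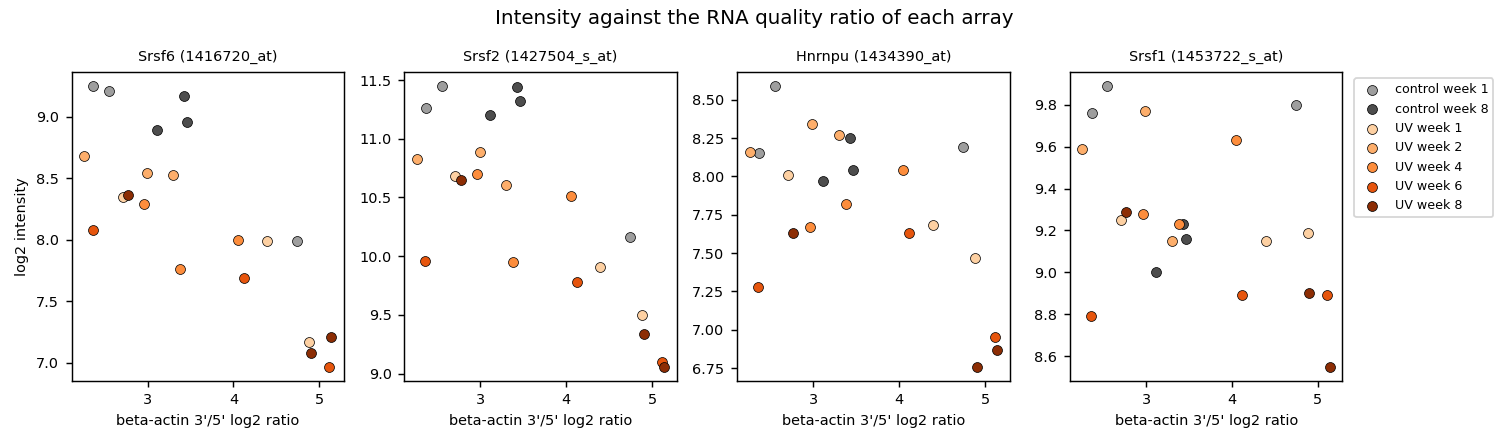
Log2 intensity (y axis) of 4 probe sets in each of the 21 arrays against the beta-actin 3′/5′ log2 ratio of the array (x axis), coloured by group. Srsf6 and Srsf2 fell with the ratio within groups (slopes -0.45 and -0.45 per unit). The slope was -0.14 for Hnrnpu and -0.05 for Srsf1, neither past the test, which does not show that they are independent of the ratio.

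Of the SR proteins, 8 of 31 tested probe sets were lower at UV week 8 than in control week 1 and 0 higher, against 6.73% and 5.39% of all. At UV week 6 the numbers were 12 and 0, against 6.3% and 5.43% of all. UV week 8 against control week 8 had 7 lower and 0 higher, against 4.3% and 2.56% of all. Srsf1, a general splicing activator, had the largest fall of all members against control week 1, while against control week 8 none of its 6 tested probe sets passed. Its probe set 1430982_at read 7.56, 8.75 and 8.06 in control week 1, 7.27, 7.08 and 7.42 in control week 8, 5.87, 6.43 and 5.25 in UV week 6 and 7.70, 4.69 and 5.20 in UV week 8 (log2 intensity). Array 551 lay among the controls and the rest of UV week 8 far below. At week 8 it had a log2 fold change of -2.26 (SE 0.565, adjusted p = 0.0176 by limma, n = 3 per group), and against control week 8 it was -1.39 (adjusted p = 0.125 by limma). Between the controls this probe set differed by -0.86 on the log2 scale, more than 1.5-fold. It was therefore left out of the 2-fold calls above. Probe set 1453722_s_at of the same gene separated the groups: it read 9.80, 9.89 and 9.76 in control week 1 and 9.29, 8.55 and 8.90 in UV week 8, all below. Its log2 fold change was -0.90 (SE 0.170, adjusted p = 0.00368 by limma, n = 3). Control week 8, however, read 9.16, 9.0 and 9.23, and against it the log2 fold change was -0.22 (adjusted p = 0.403 by limma).

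Srsf2, which binds exonic enhancers and marks nuclear speckles, read 10.16, 11.45 and 11.26 in control week 1 at probe set 1427504_s_at, and 10.65, 9.06 and 9.34 in UV week 8. The groups overlapped through control array 12, which had the highest actin ratio of its group, and UV array 551, which had the lowest of its group. This gave a log2 fold change of -1.28 (SE 0.384, adjusted p = 0.0387 by limma, n = 3) and -1.64 against control week 8. Srsf6, another enhancer-binding SR protein, read 7.99, 9.21 and 9.25 in control week 1 and 8.36, 7.21 and 7.08 in UV week 8 at 1416720_at, again overlapping. Its log2 fold change was -1.27 (SE 0.369, adjusted p = 0.034 by limma, n = 3). Of the 4 tested probe sets of Srsf6, 2 were lower against control week 1 and 3 against control week 8. Srsf3 had 6 tested probe sets, of which 0 passed at week 8, with log2 fold changes from -0.44 to 0.45. Srsf11, an SR-like protein, had 1 of 4 lower against control week 1, with a log2 fold change of -0.93 at 1452371_at (adjusted p = 0.0112 by limma). Against control week 8, 2 of 4 were lower: 1452371_at, with -1.06 (adjusted p = 0.0102 by limma), and 1430077_at, with -1.65. Srsf4, Srsf9 and Srsf10 had none past the test at week 8, and Srsf9 was lower at week 6 (-0.76, adjusted p = 0.0102 by limma). Srsf5 had a log2 fold change of -1.10 that did not pass (SE 0.573, adjusted p = 0.196 by limma).

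**Figure D3:**
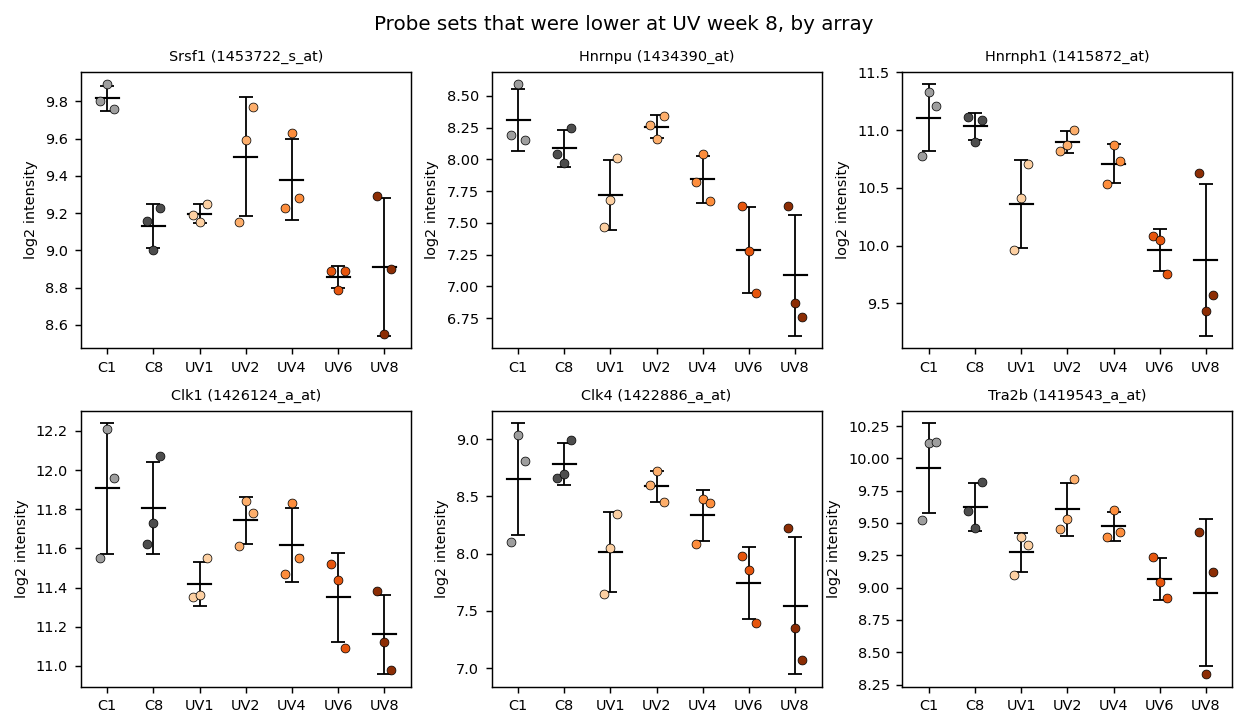
Log2 intensity (y axis) of 6 probe sets that were lower at UV week 8, by group (C1 and C8, control weeks 1 and 8; UV1 to UV8, UV weeks). Points are arrays, and bars give the mean and SD of 3 arrays. UV week 2 lies above UV week 1 in the mean of all 6, and the highest array of UV week 8 is array 551 in each.

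Of the hnRNP proteins, 13 of 58 tested probe sets were lower at UV week 8 than in control week 1 and 1 higher, against 6.73% and 5.39% of all. Against control week 8 there were 8 lower and 0 higher, against 4.3% and 2.56% of all. Hnrnpf, which binds G-rich sequences, read 8.94, 9.88 and 9.50 in control week 1 at 1423382_a_at and 9.04, 6.78 and 6.76 in UV week 8. Its log2 fold change was -1.91 (SE 0.461, adjusted p = 0.0146 by limma, n = 3), and against control week 8 it was -1.95 (adjusted p = 0.0213 by limma). A second probe set of Hnrnpf, 1450963_at, fell by 1.48 on the log2 scale. Hnrnpab, which binds RNA and single-stranded DNA, read 7.42, 8.37 and 8.16 at 1448144_at in control week 1 and 8.06, 5.27 and 5.40 in UV week 8, with a log2 fold change of -1.74 at the edge of the threshold (SE 0.560, adjusted p = 0.0496 by limma, n = 3). Against control week 8 none of the 7 tested probe sets of Hnrnpab passed. Hnrnph1, a relative of Hnrnpf, separated the groups at 1415872_at: control week 1 read 10.78, 11.33 and 11.21, and UV week 8 read 10.63, 9.43 and 9.57. It fell by 1.23 (adjusted p = 0.00519 by limma) against control week 1 and by 1.16 against control week 8.

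Hnrnpu, a nuclear scaffold protein also known as SAF-A, read 8.19, 8.59 and 8.15 in control week 1 and 7.63, 6.87 and 6.76 in UV week 8 at 1434390_at, with no overlap. Its log2 fold change was -1.22 (SE 0.213, adjusted p = 0.00231 by limma, n = 3). The slope of this probe set on the actin ratio did not pass, which does not show that it is independent of the ratio. Its probe set 1450849_at read 5.84, 7.23 and 7.11 in control week 1 and 6.22, 4.68 and 5.17 in UV week 8, overlapping, with a log2 fold change of -1.37 (adjusted p = 0.0467 by limma, n = 3). The 1 higher hnRNP probe set was Hnrnpr 1437526_x_at, with a log2 fold change of 0.60 (adjusted p = 0.0331 by limma). The other 4 probe sets of Hnrnpr lay between -0.35 and 0.16 and did not pass. Hnrnpdl had 2 of 7 probe sets lower, Hnrnpa2b1, a binder of RNA targeting elements, 1 of 4, and Hnrnpul2 1 of 2. Against control week 8 the lower probe sets of Hnrnpa2b1 and Hnrnpul2 had -0.31 (adjusted p = 0.0654 by limma) and -0.54 (adjusted p = 0.0523 by limma). Hnrnph3 (-0.91) and Hnrnpm (-0.62), each with a single probe set, were lower than in control week 1. Against control week 8 neither passed, with -0.25 for Hnrnph3 (adjusted p = 0.357 by limma) and -0.46 for Hnrnpm (adjusted p = 0.114 by limma). Between the controls Hnrnph3 had -0.66 (adjusted p = 0.342 by limma). Hnrnpa0, Hnrnpa1, Hnrnpc, Hnrnpd, Hnrnph2, Hnrnpk, Hnrnpl, Hnrnpll and Hnrnpul1 had none past the test at week 8 against control week 1. Their log2 fold changes ran from -1.10 (Hnrnpk) to 0.36 (Hnrnpc). Against control week 8, 1 of 3 probe sets of Hnrnpc and 1 of 4 of Hnrnpk were lower. At UV week 6 against control week 1, each of these 2 genes also had 1 lower.

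Clk1, which phosphorylates SR proteins and whose own transcript keeps introns in the nucleus, had 1 probe set. It read 11.55, 12.21 and 11.96 in control week 1, 11.62, 11.73 and 12.07 in control week 8, 11.35, 11.36 and 11.55 in UV week 1, 11.61, 11.84 and 11.78 in UV week 2, 11.47, 11.83 and 11.55 in UV week 4, 11.52, 11.44 and 11.09 in UV week 6 and 11.38, 11.12 and 10.98 in UV week 8. The week 8 arrays lay below every control. The log2 fold change was -0.74 (SE 0.172, adjusted p = 0.0119 by limma, n = 3) and -0.64 against control week 8 (adjusted p = 0.0338 by limma). Clk4 read 8.10, 9.04 and 8.81 in control week 1 and 8.22, 7.35 and 7.07 in UV week 8 at 1422886_a_at, with overlap, and fell by 1.10 (adjusted p = 0.0155 by limma, n = 3). Clk2 read 5.82, 6.73 and 6.61 in control week 1 and 6.49, 5.56 and 5.46 in UV week 8 and did not pass (-0.55, adjusted p = 0.187 by limma).

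Tra2b read 10.82, 11.10 and 11.15 in control week 1 and 10.63, 10.28 and 10.40 in UV week 8 at 1427432_a_at, its probe set of highest mean. The groups did not overlap, and the log2 fold change was -0.58 (SE 0.139, adjusted p = 0.0135 by limma, n = 3). Against control week 8 it was -0.35 (adjusted p = 0.114 by limma), and none of the 5 probe sets of Tra2b passed as lower. Its relative Tra2a read 10.18, 10.02 and 10.11 in control week 1 and 9.66, 9.96 and 9.79 in UV week 8 at 1454725_at, a difference of -0.30 that did not pass (adjusted p = 0.104 by limma, n = 3). Rbm39, a U2AF-related splicing protein, had 4 of 11 probe sets lower, and Rbm25, an SR-like regulator, had 1 of 4. Rbm39 1426671_a_at read 9.11, 10.22 and 10.31 in control week 1 and 9.42, 8.27 and 8.44 in UV week 8, a log2 fold change of -1.17 (adjusted p = 0.0323 by limma, n = 3). Its probe set 1446147_at had the log2 fold change of largest size for this gene, at -1.59, and 1446148_x_at and 1439316_at had -1.42 and -1.25. Rbm25 1428907_at read 8.58, 8.74 and 8.53 in control week 1 and 8.26, 7.07 and 7.78 in UV week 8, all below, with a log2 fold change of -0.91 (adjusted p = 0.022 by limma, n = 3).

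Of the nuclear-retained RNAs, 2 of 20 tested probe sets were lower at UV week 8 than in control week 1 and 2 higher, against 6.73% and 5.39% of all. Against control week 8 there was 1 lower and 1 higher, against 4.3% and 2.56% of all. Neat1, the scaffold of paraspeckles, moved in both directions against control week 1. Its brighter probe set, 1428083_at, read 12.09, 12.61 and 12.52 in control week 1, 12.23, 12.37 and 12.46 in control week 8, 12.66, 12.91 and 12.87 in UV week 2, 11.47, 11.47 and 11.73 in UV week 6 and 12.28, 11.22 and 11.37 in UV week 8. Week 6 lay below every control, while week 8 overlapped through array 551. The log2 fold change was -0.85 at week 6 (adjusted p = 0.0193 by limma) and -0.78 at week 8 (SE 0.214, adjusted p = 0.0266 by limma, n = 3). The dimmer probe set, 1442881_at, read 6.13, 6.03 and 6.02 in control week 1 and 6.27, 6.50 and 6.77 in UV week 8, all above control week 1. It rose by 0.45 on the log2 scale (SE 0.137, adjusted p = 0.0413 by limma, n = 3). Against control week 8 the log2 fold change of 1442881_at was 0.43 and did not pass.

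Malat1, an abundant RNA of nuclear speckles, passed at week 8 with 0 of 7 probe sets. The brightest, 1429060_at, read 9.96, 10.04 and 9.78 in control week 1, 10.04, 10.10 and 10.27 in control week 8, 10.37, 9.88 and 9.91 in UV week 6 and 9.86, 9.53 and 9.69 in UV week 8. The log2 fold change at week 8 was -0.24 (SE 0.148, adjusted p = 0.273 by limma, n = 3). At week 6, 1418189_s_at, a dim probe set, was higher by 0.67 (adjusted p = 0.0118 by limma). Meg3 had 1 of 11 probe sets lower and 1 higher at week 8 against control week 1, and 0 lower and 1 higher against control week 8. Its probe set of highest mean, 1439380_x_at, read 10.45, 9.91 and 9.94 in control week 1, 10.73, 10.77 and 10.65 in UV week 1, 9.45, 9.81 and 9.40 in UV week 6 and 9.80, 10 and 9.56 in UV week 8. It was above all controls at UV week 1, with a log2 fold change of 0.62 that did not pass, and lower at week 6 (-0.55, adjusted p = 0.0426 by limma). Probe set 1452183_a_at read 8.54, 8.75 and 8.29 in control week 1 and 8.41, 6.83 and 6.68 in UV week 8, a log2 fold change of -1.22 (adjusted p = 0.0342 by limma, n = 3). Probe set 1436057_at was higher by 0.43 (adjusted p = 0.04 by limma).

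**Figure D4:**
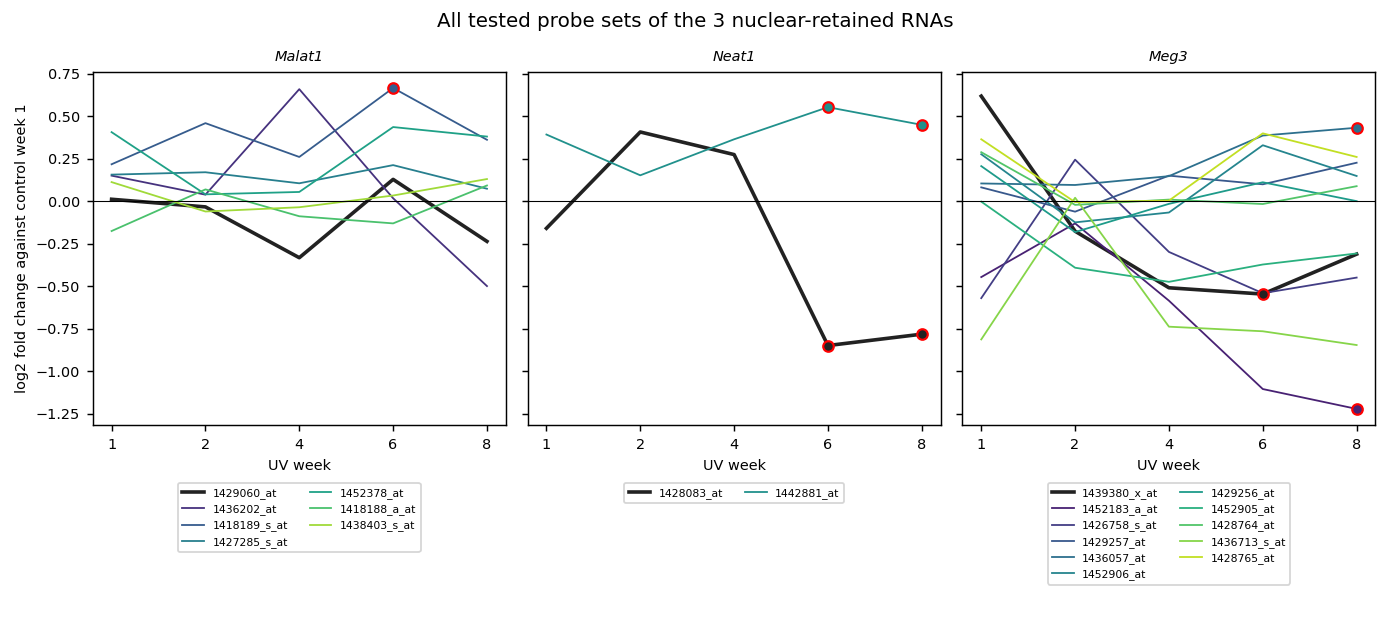
Log2 fold change against control week 1 (y axis) over the UV weeks (x axis, not to scale in time) for all tested probe sets of Malat1, Neat1 and Meg3, the thick black line being the probe set of highest mean and red rings marking an adjusted p of at most 0.05. The 2 probe sets of Neat1 part at weeks 6 and 8, where 1 is lower and the other higher.

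Probe sets of the same gene often differed. Of the 28 genes with 2 or more tested probe sets, 17 had some but not all lower at UV week 8, 11 had none lower and 0 had all lower, against 16.9%, 82.4% and 0.694% of the 8359 such genes of the array. In 23 of the 28, log2 fold changes had both signs, against 58.5% of all such genes. Beyond the probe set of highest mean, the 28 genes held 98 tested probe sets and the 8359 genes held 14914. A gene with more probe sets can more easily show both signs or some lower, and these shares were not matched for that. By kind of probe set, 9 of 28 a_at, 5 of 18 s_at, 1 of 14 x_at and 17 of 76 of the plain kind were lower. Of all probe sets 6.73% were lower. The share over all probe sets of each kind was not counted, so these counts do not set the kinds apart. Against control week 1, Meg3 and Neat1 each had 1 probe set lower and 1 higher. Against control week 8, Neat1 had 1 lower and 0 higher, and Meg3 had 0 lower and 1 higher. The log2 ratio of each further probe set to the probe set of highest mean of its gene was tested over all 14914 such pairs of the array. It changed in 28 of 98 member pairs, of 17 genes, at UV week 8 against control week 1, against 16.7% of all pairs (limma, adjusted p of at most 0.05). The further probe set was the lower one in 16 and the higher one in 12. Against control week 8 it changed in 19 of 98 pairs, against 10.4% of all. The first number was 55 without UV array 551, 1 without UV array 552, 0 without UV array 555, 2 without control array 13 and 5 without control array 16, 63 with array weights and 0 with only the 2 groups compared. The second was 49 without UV array 551, 0 without UV array 552, UV array 555 or control array 55, 2 without control array 51 or 53, 55 with array weights and 0 with only the 2 groups compared. Both were 0 without the arrays of an actin ratio above 4, where UV week 8 held array 551 alone.

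Hnrnpf had the pair of largest unequal change. Its probe set of highest mean, 1456664_x_at, read 13.17, 12.82 and 12.83 in control week 1 and 12.88, 13.24 and 13.26 in UV week 8, while 1423382_a_at fell, a difference of -2.09 between log2 fold changes (SE 0.541, adjusted p = 0.0209 by limma, n = 3). In Srsf1 the difference between 1430982_at and 1434972_x_at was -1.87 (adjusted p = 0.0247 by limma). In Hnrnpab it was -1.79 between 1448144_at and 1455855_x_at, the latter reading 12.69, 12.81 and 12.87 in control week 1 and 12.86, 12.72 and 12.92 in UV week 8. In Hnrnpf and Hnrnpab the brighter probe set thus varied less between arrays than the dimmer one. In Srsf6, 1447898_s_at read 10.97, 10.72 and 10.99 in control week 1 and 10.96, 10.94 and 11.20 in UV week 8, and 1416720_at differed from it by -1.41 (adjusted p = 0.0285 by limma, n = 3). In Rbm39 the pair ran the other way, since the dim 1456386_at, near the lower end of the array's range, differed from 1426671_a_at by 1.54 (adjusted p = 0.0253 by limma). In Hnrnpu, 1434390_at differed from 1423051_at by -1.25 (adjusted p = 0.00664 by limma).

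**Figure D5:**
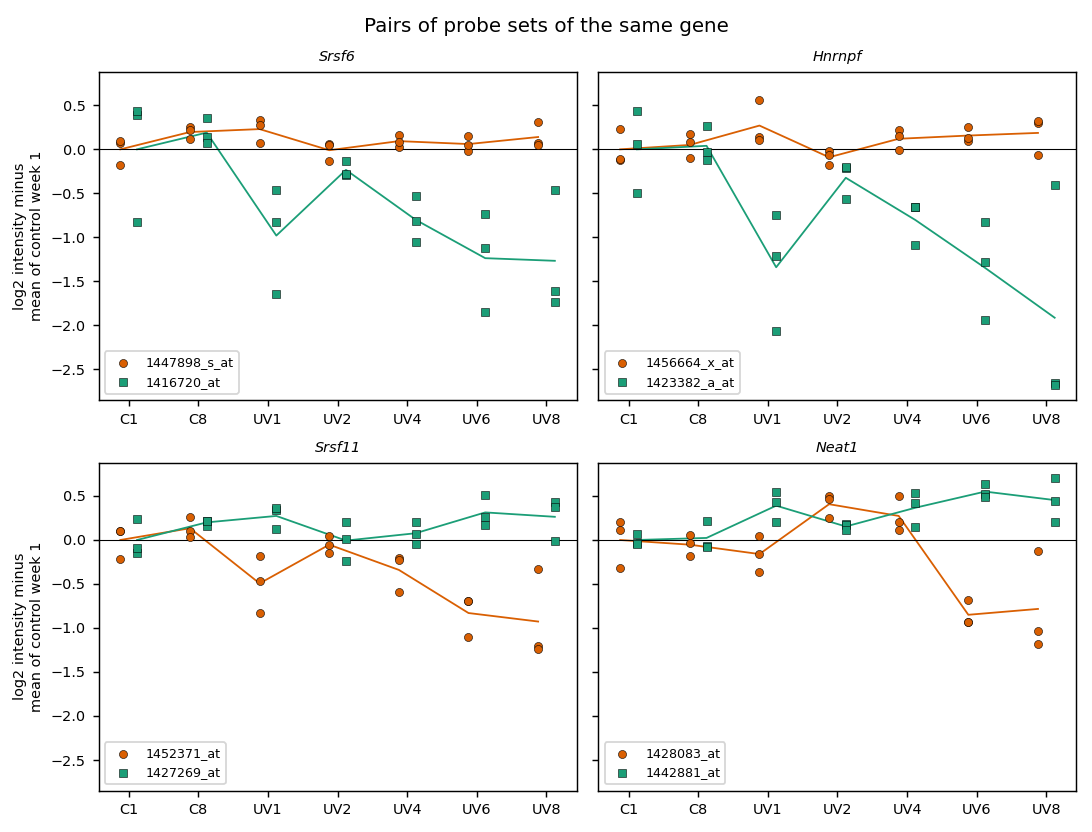
Log2 intensity minus the mean of control week 1 (y axis) for 2 probe sets each of Srsf6, Hnrnpf, Srsf11 and Neat1, by group (C1 and C8, control weeks 1 and 8; UV1 to UV8, UV weeks). Points are arrays and lines join group means, and in each gene 1 probe set has means below 0 at UV weeks 6 and 8 while those of the other lie near or above 0.

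Other genes of the splicing pathway were read at their probe set of highest mean, from lists drawn up with earlier results of these data known. Over the 17403 genes of the array so read, 8.35% were lower and 5.72% higher at UV week 8 against control week 1. Core spliceosome genes, which include Sf1 (branch point binding) and Snrpe (an Sm protein), were lower in 4 of 37 and higher in 3 at UV week 8, with a median log2 fold change of -0.01. The values were 0.08 for Sf1 and 0.38 for Snrpe, and neither passed. The list named SR-related proteins was lower in 10 of 26 and higher in 0, with a median of -0.33. It also held the helicases Ddx5 and Ddx17, which read 0.01 and 0.00. Other splicing regulators were lower in 6 of 29 and higher in 0. Among them Mbnl1, a muscleblind protein, fell by 1.03 (adjusted p = 0.00647 by limma) and the value for Pcbp1, a poly(C)-binding protein, was -0.55. SR protein kinases were lower in 3 of 11 and higher in 1, with values of 0.23 for Prpf4b and 0.13 for Srpk1. Paraspeckle and FET proteins were lower in 2 of 11 and higher in 1, with values of -0.40 for Nono and 0.24 for Matr3. Nonsense-mediated decay genes were lower in 1 of 10, with values of -0.34 for Rbm8a and -0.01 for Upf2. Other long noncoding RNAs were lower in 1 of 11 and higher in 1, which was Snhg1 (0.60, adjusted p = 0.0278 by limma), while Gas5 read 0.00. The neighbours of Meg3, Rian and Mirg among them, passed in 0 of 3, with values of 0.32 and -0.04.

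Whole skin was sampled, so fewer cells of a type and less RNA per cell cannot be told apart. Keratinocyte markers were lower in 1 of 6, with a median log2 fold change of -0.09 at UV week 8 against control week 1. Their summed intensity ran from 39238 to 61312 in control week 1 and from 34151 to 69032 in UV week 8. Krt10, 1 of these markers, read 14.33 and 14.31 in these groups. Hair follicle markers were lower in 5 of 6, and their summed intensity ran from 19672 to 30432 in control week 1 and from 441 to 4369 in UV week 8. Skeletal muscle markers were lower in 5 of 6 (46930 to 57219 against 15635 to 26137), fibroblast markers in 3 of 6 (54454 to 65801 against 31857 to 47488) and adipocyte markers in 3 of 4 (17208 to 20347 against 8224 to 12310). Immune cell markers were lower in 2 of 7 (12865 to 16574 against 14076 to 15642), endothelial markers in 2 of 5 (472 to 598 against 395 to 450), and sebocyte markers were higher in 1 of 4 (12358 to 21646 against 14441 to 22245). Against control week 8, hair follicle markers were lower in 2 of 6, with a sum of 7548 to 14224 in that control, muscle markers in 3 of 6 (41529 to 47394), fibroblast markers in 2 of 6 (48565 to 68043) and adipocyte markers in 0 of 4 (12198 to 14387). The part of these cells in the members' changes was not tested.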

How the data were processed

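Skin RNA of 21 samples was hybridised to 1-colour Affymetrix Mouse Genome arrays, 1 array per sample. The deposited values are linear intensities per probe set, made by the authors before deposit. The study's methods name Expression Console (version 1.4) with the Microarray Suite 5 algorithm, and the submitters' processing notes name RMA (robust multi-array averaging, which models probe intensities after quantile normalization). The deposited intensity values ran from 4.35 to 35055.9, with array medians between 30.1 and 33.3, and the choice between the 2 was not settled further. The methods speak of fewer groups than the 7 that the labels give, and the labels were followed. Arrays hold no counts, so the number of arrays limits the precision.

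Intensities were log2 transformed. The 64 control probe sets were left out, and 40540 probe sets that reached the 20th percentile of their array in at least 1 array were tested with limma 3.58.1 (R 4.3.3), with 1 mean per group over all 21 arrays (14 residual degrees of freedom) and Benjamini-Hochberg adjustment over all probe sets tested. Gene names came from the platform annotation, and all member symbols matched RefSeq by gene ID. Probe sets listing several genes were not members. The code was tested on simulated data. The members and lists were chosen with earlier results of these data known. Values by array are given for Malat1, Neat1, Meg3, the probe set of highest mean of Clk1, Clk2, Clk4, Tra2a, Tra2b, Rbm39 and Rbm25, the members of largest change and the pairs of largest unequal change; Srsf1 1453722_s_at, Hnrnph1, Hnrnpu 1434390_at and some probe sets of Srsf2, Srsf6, Srsf11 and Hnrnpr were named or plotted after their values were seen. The alternatives tried were an offset of 16 before the log, no intensity filter, quantile normalization, both RNA integrity ratios as covariates, array weights, only the 2 groups compared, the mean of both controls, a 2-fold minimum, 1 probe set per gene and leaving out each array. Leaving out all arrays of a beta-actin ratio above 4, and the slope on that ratio, were added after the data were seen. Promoter sequences were read with pandas 2.3.3 and figures drawn with matplotlib 3.10.9 (Python 3.11.15).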

Additional observations from a re-analysis of the deposited data

How the results depend on the processing

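No paired analysis was possible because no array number of the labels occurs in more than 1 group. For array weights, the ratios as covariates, only 2 groups and leaving out 1 array, shares over all probe sets were not counted. The numbers given for these settings thus do not set the members apart. With array weights, 64 members passed in UV week 1, 2 in UV week 2, 30 in UV week 4, 61 in UV week 6, 82 in UV week 8, 69 against control week 8, 3 between the controls, 54 from UV week 1 to week 2 and 98 by the F test, and 63 and 55 pairs changed unequally against control weeks 1 and 8. With the Gapdh ratio in the model the numbers were 5 at week 1, 4 at week 4, 53 at week 6, 54 against control week 8, 61 by the F test and 41 pairs against control week 8, and with the beta-actin ratio they were 4, 1 and 6 for weeks 1, 2 and 4. With only the 2 groups compared, 9 passed at week 6, and 0 at week 8 against either control, with 0 pairs against either. With a 2-fold minimum, 9 passed at week 6, 16 at week 8 and 15 against control week 8. With the probe set of highest mean of each gene alone, where fewer probe sets were counted, 14, 13 and 8 passed. With log2(value + 16), 1 passed at week 4 and 30 pairs changed unequally against control week 8. Without the arrays of a beta-actin ratio above 4, 0 passed at week 8 against either control and 0 pairs changed unequally. Leaving out 1 array at a time gave 0 to 10 at week 1, 0 to 4 at week 4, 4 to 44 at week 6, 6 to 73 at week 8, 0 to 67 against control week 8, 0 to 6 from UV week 1 to week 2, 14 to 79 by the F test, 0 to 55 pairs against control week 1 and 0 to 49 against control week 8. Where leaving out an array left a group with 2, fewer samples entered the fit; the cause of the other shifts was not tested. Of 300 values of named probe sets under alternatives, 201 kept their direction and side of the threshold, 96 kept the direction and no longer passed, 3 newly passed and 0 changed direction. Some of these probe sets were picked for a large change past the same test, and the alternatives reused most of the arrays. Few changes of direction could therefore arise. Signal near the lower end of the range limits the dim probe sets of Malat1 and Rbm39.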
